A study of Mus musculus with 5 samples.

Results

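Goblet cells with an interferon response were 769 of 3803 goblet cells (20.2%, 95% interval 18.95 to 21.53), and 8.14% of the 9451 cells kept from 1 droplet library. They were selected on their measured transcripts. A cell counted as goblet when Zg16, Fcgbp, Clca1 and Spink4 together made up at least 1000 of every 10000 of its unique molecular identifiers (UMIs, each standing for 1 captured transcript) and Chgb under 20, and as an interferon goblet cell when at least 3 of Ifit1, Ifit1bl1, Rsad2, Cmpk2, Ddx60 and Slfn4 had at least 1 UMI. The cells came from the small intestine of 4 pooled C57Bl/6J mice, 2 male and 2 female, aged 6 weeks, which all carried Neurog3-Cre and R26-LSL-tdTomato. They were sorted for tdTomato, so that every group below shares this genotype and sort, and no untraced cell was sequenced beside them. Neurog3-Cre is active in progenitors of enteroendocrine cells, which makes these goblet cells the traced ones and not goblet cells at large. The mice were given no treatment in the labels. The bulk RNA-seq libraries of the series, from CCK+ and CCK- cells, were not used here.

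Goblet cells secrete the mucus that covers the intestinal epithelium. Interferons are secreted signals of infection. Type I and type III interferons act through receptors whose signal reaches the interferon-stimulated response element in the promoters of antiviral genes. Interferon gamma induces guanylate-binding proteins, immunity-related GTPases and antigen presentation, which the other types can induce as well. Epithelial cells of the intestine are known to respond strongly to type III interferons.

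The 6 genes that chose the cells are genes of the interferon response, and several encode antiviral proteins. Ifit1 binds viral RNA that lacks the host's cap, and Ifit1bl1 is a related gene nearby on chromosome 19. Rsad2 (viperin) makes a nucleotide that stops viral RNA synthesis, and its neighbor Cmpk2 on chromosome 12 is a mitochondrial nucleotide kinase. Ddx60 is a helicase linked to the sensing of viral RNA, and Slfn4 belongs to the Schlafen family. In the GENCODE annotation of GRCm38 the genes lie at chr19:34640871-34650009 (Ifit1), chr19:34592891-34601956 (Ifit1bl1), chr12:26442746-26456452 (Rsad2), chr12:26469204-26479837 (Cmpk2), chr8:61928087-62038244 (Ddx60) and chr11:83175186-83190216 (Slfn4). The promoter windows of 3 of them, and of Isg15 and Gbp2 as a pair of genes that did not choose the cells, are shown because the response element can be read in them. Each holds 250 bases before and 50 bases after the start in RefSeq (GRCm38.p6), 5′ to 3′ on the strand of the gene, with the matches to the core GAAANNGAAA on either strand in capitals (N is any base, and overlapping matches run together). The windows are chr19:34640639-34640938 on the plus strand for Ifit1, chr12:26456403-26456702 on the minus strand for Rsad2, chr8:61927837-61928136 on the plus strand for Ddx60, chr4:156200769-156201068 on the minus strand for Isg15 and chr3:142620413-142620712 on the plus strand for Gbp2.
Ifit1: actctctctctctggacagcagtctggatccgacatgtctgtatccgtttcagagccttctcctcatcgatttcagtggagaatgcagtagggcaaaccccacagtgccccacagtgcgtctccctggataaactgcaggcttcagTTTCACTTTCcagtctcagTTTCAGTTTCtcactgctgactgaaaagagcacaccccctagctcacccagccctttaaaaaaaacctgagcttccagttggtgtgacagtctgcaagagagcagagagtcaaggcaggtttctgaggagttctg
Rsad2: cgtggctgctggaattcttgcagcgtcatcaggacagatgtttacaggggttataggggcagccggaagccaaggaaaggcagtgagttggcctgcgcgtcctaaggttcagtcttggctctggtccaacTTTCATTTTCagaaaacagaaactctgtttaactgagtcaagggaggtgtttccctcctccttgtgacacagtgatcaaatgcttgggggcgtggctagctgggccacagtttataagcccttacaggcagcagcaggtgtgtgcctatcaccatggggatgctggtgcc
Ddx60: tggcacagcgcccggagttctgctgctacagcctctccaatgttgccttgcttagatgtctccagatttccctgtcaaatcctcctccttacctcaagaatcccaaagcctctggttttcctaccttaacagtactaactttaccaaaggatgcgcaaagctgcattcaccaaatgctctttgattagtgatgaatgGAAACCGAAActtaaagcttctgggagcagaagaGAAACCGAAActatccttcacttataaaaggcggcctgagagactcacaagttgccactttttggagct
Isg15: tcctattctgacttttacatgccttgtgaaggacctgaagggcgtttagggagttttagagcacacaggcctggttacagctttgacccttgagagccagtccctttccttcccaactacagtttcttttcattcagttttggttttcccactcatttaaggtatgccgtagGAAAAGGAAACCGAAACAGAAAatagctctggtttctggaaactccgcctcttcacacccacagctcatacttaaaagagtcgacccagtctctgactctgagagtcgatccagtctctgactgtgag
Gbp2: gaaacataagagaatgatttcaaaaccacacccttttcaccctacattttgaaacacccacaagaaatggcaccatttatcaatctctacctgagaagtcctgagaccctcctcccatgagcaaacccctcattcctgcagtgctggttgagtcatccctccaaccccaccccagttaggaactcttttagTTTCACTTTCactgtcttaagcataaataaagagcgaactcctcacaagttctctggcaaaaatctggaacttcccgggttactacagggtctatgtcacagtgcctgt

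Matches to the core began 104 and 85 bases before the start of Ifit1, 120 bases before that of Rsad2, 53 and 19 bases before that of Ddx60, 78, 72 and 66 bases before that of Isg15 and 59 bases before that of Gbp2. The windows of Cmpk2 and Slfn4 held none, and each of the 2 windows of Ifit1bl1 held 1, so that 4 of the 6 genes had a match. A match was found for 1079 of the 27025 genes with a promoter window (3.99%) and for 239 of 6062 genes kept in the comparison below (3.94%). Among the antiviral and interferon gamma-inducible genes listed for this work, 34 of 65 with a window had one (52.3%, 95% interval 39.5 to 64.9). Of the 77 genes that were at least 2-fold higher in the comparison below, 62 had a window and 22 of these a match (35.5%, 23.7 to 48.7). None of the 14 genes of the goblet list with a window held it. A match is a description of the letters in the window and not a measure of binding.

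The library was 1 sample, so there were no replicates and no tests. Intervals are 95% throughout. Those of shares are Clopper-Pearson, those of levels Poisson and those of folds exact conditional intervals, and all describe counting error alone. Levels are the summed UMIs of a gene in a group per 10000 UMIs of that group. The interferon goblet cells held 3008 to 20501 UMIs each (median 7292), the 872 goblet cells with none of the 6 genes 2632 to 23306 (median 6295), and the 2162 with 1 or 2 of them 2480 to 30892 (median 6933). Depth thus differed between the groups, and shares of cells are also given after every cell was thinned to 2000 UMIs, which left out no goblet cell. Both sexes were among the interferon goblet cells, with Xist and no Y-linked UMI in 192 cells, Y-linked UMIs and no Xist in 204, both in 53 and neither in 320. Interferon goblet cells were 17.5% of the goblet cells of the first kind (95% interval 15.3 to 19.9) and 22.3% of those of the second (19.7 to 25.2), with median depths of 6705 and 7292 UMIs. When thinned UMIs defined the kinds, the shares were 17.5% (14.8 to 20.6) and 23.3% (19.02 to 28.06). The mice cannot be told apart further.

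Among the goblet cells the most common number of the 6 genes found was 1, and cells became fewer from there to 6. None was found in 872 cells, 1 in 1355, 2 in 807, 3 in 415, 4 in 198, 5 in 117 and all 6 in 39. The limit thus runs between 415 cells just inside and 807 just outside it. At the other limits, 4 of 44 cells with a goblet sum of 1000 to 1100 had at least 3 of the 6 genes and 2 of 40 with 900 to 1000. For Chgb, 4 of 15 cells with 18 to 20 per 10000 had them and 1 of 6 with 20 to 22.

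**Figure D1:**
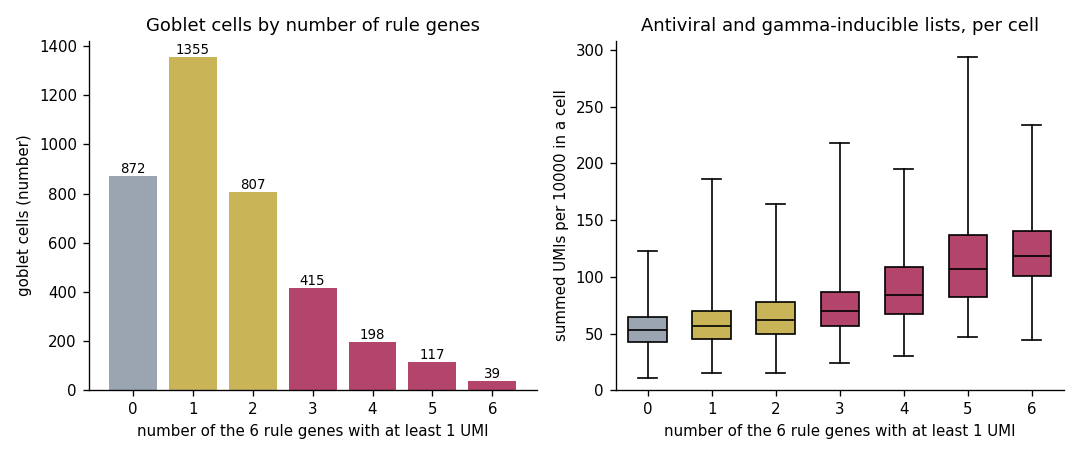
Left, number of goblet cells with 0 to 6 of the rule genes (none, gray; 1 or 2, yellow; interferon goblet cells, red). Right, summed UMIs per 10000 of the antiviral and gamma-inducible lists in each cell, rule genes not included, with the median as a line, quartiles as the box and the lowest and highest cell as whiskers. The median rose from 53.1 in cells with none to 118 in cells with all 6, and the ranges overlapped.

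Ddx60 was the gene of the 6 found most often in the interferon goblet cells, in 739 of 769 (96.1%). Ifit1bl1 was found in 599 (77.9%), Rsad2 in 533 (69.3%), Ifit1 in 509 (66.2%), Cmpk2 in 278 (36.2%) and Slfn4 in 198 (25.7%). These shares follow from the choice of the cells. In the 2162 goblet cells with 1 or 2 of the 6 genes, Ddx60 was found in 1637 (75.7%), and the next, Ifit1bl1, in 457 (21.1%). The commonest combination was Ifit1bl1 with Rsad2 and Ddx60, in 108 cells, followed by the same 3 genes with Ifit1 in 98 cells. Of the cells with Rsad2, 187 (35.1%) also held its neighbor Cmpk2, and of those with Ifit1, 393 (77.2%) also held Ifit1bl1.

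The amount of these transcripts differed widely from cell to cell. A cell held 0 to 31 UMIs of Ifit1 (median 1), 0 to 60 of Ifit1bl1 (median 1) and 0 to 20 of Ddx60 (median 3). In 102 interferon goblet cells (13.3%) every gene found was there as a single UMI, whereas 110 (14.3%) held over 20 UMIs of the 6 genes. The most loaded 5% of the cells held 34.7% of the Ifit1 UMIs and 17.2% of the Ddx60 UMIs. Free RNA, read from barcodes with 1 to 100 UMIs, held Ddx60 at 1.72 per 10000, Ifit1bl1 at 0.832, Rsad2 at 0.742, Ifit1 at 0.463, Slfn4 at 0.379 and Cmpk2 at 0.209. In the same order, the levels in interferon goblet cells were 4.70, 4.93, 2.62, 2.83, 0.515 and 0.770. In goblet cells with 1 or 2 of the 6 genes they were 1.98, 0.433, 0.333, 0.177, 0.0862 and 0.0984. The part of free RNA in the choice of the cells was not tested.

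Other cells of the library show how far the pattern went beyond goblet cells. At least 3 of the 6 genes were found in 111 of 705 cells (15.7%, 95% interval 13.1 to 18.6) with high goblet genes and Chgb of 20 or more, in 69 of 3323 (2.08%, 1.62 to 2.62) with high Chgb alone, which is a marker of enteroendocrine cells, and in 102 of 1620 (6.30%, 5.16 to 7.59) with neither. After thinning, the shares were 6.31% for goblet cells (5.56 to 7.13), 3.69% for cells high in both (2.42 to 5.36), 0.582% for cells with high Chgb alone (0.351 to 0.907) and 1.11% for the others (0.660 to 1.75). The others were deeper than the goblet cells, with a median of 9326 UMIs against 6859, and their share was lower both before and after thinning. These 4 classes are ranges of gene levels and not cell types. Ddx60 by itself differed between them. In cells with 1 or 2 of the 6 genes it was at 1.98 per 10000 in goblet cells and 1.65 in cells high in both. It was at 0.861 in such cells with high Chgb alone and at 0.405 in those with neither. The part of Ddx60 in the class shares was not tested.

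**Figure D2:**
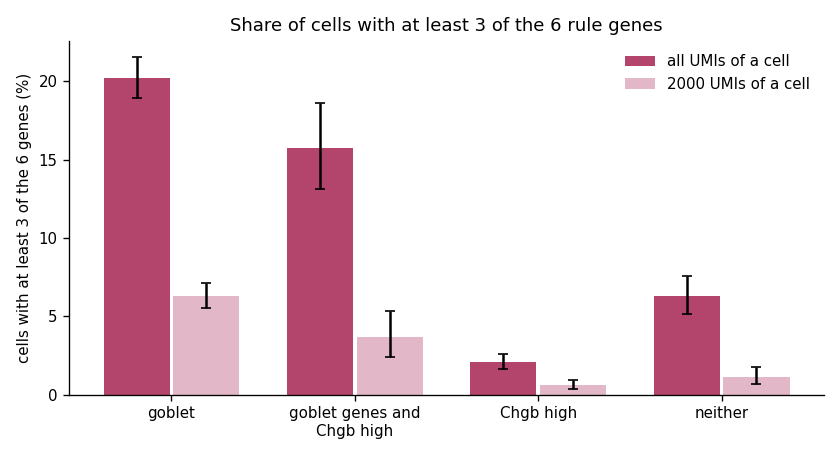
Share of cells with at least 3 of the 6 genes in 4 classes set by the goblet sum and Chgb, with all UMIs (dark) and with 2000 UMIs per cell (light); bars show the exact 95% binomial interval. Goblet cells had the highest share in both counts, 20.2% and 6.31%.

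Cells of the other classes with at least 3 of the 6 genes held less Isg15 and Gbp2. Isg15 was at 5.59 per 10000 in interferon goblet cells (95% interval 5.40 to 5.79), 3.28 in cells high in both goblet genes and Chgb (2.91 to 3.70), 1.67 in cells with high Chgb alone (1.32 to 2.09) and 3.16 in those with neither (2.87 to 3.46). Gbp2 was at 0.950 in interferon goblet cells (0.873 to 1.03), and in the other classes, taken in that order, at 0.652 (0.490 to 0.851), 0.264 (0.136 to 0.460) and 0.0623 (0.0285 to 0.118).

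For the comparison within goblet cells, 7821 genes outside the rule were kept whose level over all goblet cells predicts at least 20 UMIs in the interferon goblet cells. Against goblet cells with none of the 6 genes, 77 were at least 2-fold higher in the interferon goblet cells (0.985% of the genes kept) and 48 at least 2-fold lower (0.614%), and the median log2 fold was -0.05. The filter counts the UMIs of the interferon goblet cells themselves. Taken on the other goblet cells alone, a filter chosen after seeing the data, it kept 7845 genes, of which 67 were at least 2-fold higher (0.854%) and 60 lower (0.765%), and it counts the UMIs of the cells with none in turn. On the cells with 1 or 2 of the genes alone, the filter gave 73 and 48. Of the 77, 10 did not pass on the other goblet cells, namely Cxcl10, Phf11d, Gm5431, Rbm43, Parp11, Nos2, Itgb5, Eci3, Zw10 and Hspa1a. These 10 had to be higher in the interferon goblet cells to be kept, so that their folds are descriptions of genes selected for them. Of the 77, 42 were in the antiviral, gamma-inducible, signaling or MHC class I lists, 6 in other lists and 29 in none. The lists were written for this work, and a gene in none of them is not thereby outside the interferon response. Of the 48, none was in those 4 lists, and 43 had under 100 UMIs in both groups together, against 28 of the 77.

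The antiviral genes were the largest group. Of 65 in the table, 52 passed the filter, and 29 of the 52 were at least 2-fold higher and none 2-fold lower, with a median log2 fold of 1.11. With the filter on the other goblet cells 51 passed, 28 of them at least 2-fold higher, and the median was 1.10. Isg15, a ubiquitin-like protein that is joined to other proteins in the interferon response, had a UMI in 572 of 769 interferon goblet cells (74.4%) and in 236 of 872 cells with none of the 6 genes (27.1%). After thinning the shares were 49.2% and 10.7%. Its level was 5.59 per 10000 against 0.613 (95% interval 0.551 to 0.681), a fold of 9.11 (8.17 to 10.2), with 1.37 in free RNA. The UMIs of single cells overlapped, from 0 to 43 against 0 to 8.

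Higher folds were found for genes of lower level. Ifi44, an interferon-induced protein that limits viral replication, was at 0.270 per 10000 against 0.0156, a fold of 17.4 (95% interval 8.93 to 38.7). Trim30a, of a family of ubiquitin ligases, was at 0.460 against 0.0380, and Apol9b, an apolipoprotein L gene, at 0.320 against 0.0294, with folds of 12.1 (7.82 to 19.6) and 10.9 (6.63 to 19.1). Slfn2 was 8.40-fold higher (6.09 to 11.9), Usp18, which removes Isg15 from proteins and damps interferon signaling, 8.34-fold (6.19 to 11.5), and Phf11d, which passed only with its UMIs in the interferon goblet cells, 7.13-fold (3.97 to 13.9). Rnf213, a large ubiquitin ligase, was at 0.709 against 0.145, 4.89-fold higher (3.86 to 6.26). The Ifit, Slfn, Trim30, Apol9, Oas and Gbp families hold near-identical copies between which reads cannot always be assigned, so that the levels of single members are uncertain.

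At the other end of the list, Ifitm2, which blocks the entry of viruses, was at 0.193 per 10000 against 0.249, a fold of 0.775 (0.600 to 0.999), and was the single gene of the 52 with a fold below 1. The highest single gene of the list, Ifi27l2b, was at 26.8 against 24.6 and stood at 1.09-fold. The summed list therefore differed less than its members, at 67.0 per 10000 against 43.3 (1.55-fold). The 13 genes that did not pass the filter include Ifit3, named after its values were seen, with 39 UMIs against 2, a ratio of 19.4 with a counting interval of 5.03 to 166.

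Whether an interferon acted on these cells, and of which type, was not tested. Genes of the gamma-inducible list, which the other types can also induce, were higher too. Of 23 in the table, 11 passed the filter, and 9 of these were at least 2-fold higher and none 2-fold lower, with a median log2 fold of 2.03, which was that of Nos2. Cxcl10 and Nos2 passed only with their UMIs in the interferon goblet cells, and with the filter on the other goblet cells 7 of 9 were at least 2-fold higher, with a median of 1.97. Cxcl10, a chemokine that attracts T cells, had 150 UMIs in 6.11% of the interferon goblet cells and 9 UMIs in 0.688% of the cells with none of the 6 genes. After thinning these shares were 2.60% and 0.688%. The fold of Cxcl10 was 16.6 (95% interval 8.52 to 37.0). 5 of the interferon goblet cells held 37.3% of its UMIs. Gbp3 was 7.51-fold higher (4.20 to 14.6). Gbp2, a guanylate-binding protein that acts on vacuoles of pathogens, had a UMI in 25.5% of the cells against 7.22% (11.96% against 2.64% after thinning) and was at 0.950 per 10000 against 0.150, 6.32-fold higher (5.04 to 8.02). Ifi47, an immunity-related GTPase, was 5.61-fold higher (4.01 to 8.03), and Igtp of the same family 4.96-fold (3.50 to 7.18). Ido1, which breaks down tryptophan, was at 13.8 per 10000 against 9.68, 1.42-fold higher (1.37 to 1.47), with 11.0 in free RNA.

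The 21 listed genes of type I, II and III interferons themselves had 0 UMIs in the interferon goblet cells and 0 in the cells with none of the 6 genes, where the 3 UMIs taken as the limit of a count of 0 would be a level of 0.00517 and 0.00518 per 10000. Ifnz had 1 UMI in the cells with 1 or 2 of the genes. Of 27 signaling genes, 23 passed the filter (22 on the other goblet cells, where Socs1 did not) and 3 were at least 2-fold higher, with a median log2 fold of 0.28. Among them Stat2, which passes on the signal of type I and type III interferons, was at 0.394 against 0.175 per 10000 (2.26-fold, 95% interval 1.78 to 2.88) and Irf9, which binds the response element, at 0.255 against 0.114 (2.23-fold, 1.66 to 3.03). Socs1, a feedback inhibitor of this pathway that passed only with the UMIs of the interferon goblet cells, was 1.89-fold higher (1.05 to 3.48). Il10rb, a receptor chain for type III interferons, was at 0.384 against 0.404. Its partner Ifnlr1 did not pass the filter, with 18 UMIs against 22.

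Antigen presentation by MHC class I differed less. Of 25 genes in the table, 19 passed, 1 of them at least 2-fold higher, and the median log2 fold was 0.25. That gene was Tap1, a peptide transporter, at 0.510 per 10000 against 0.199 (2.56-fold, 95% interval 2.06 to 3.21). H2-Q4 was 1.80-fold higher (1.35 to 2.41), the immunoproteasome subunit Psmb9 1.58-fold (1.37 to 1.83) and Tap2 1.48-fold (1.19 to 1.84). B2m, the light chain of the complex, was at 13.7 against 12.4. H2-Q7 was at 0.0413 against 0.0570, with an interval of its fold from 0.410 to 1.26. None of the 4 MHC class II genes that passed the filter reached 2-fold, and their median log2 fold was 0.11. H2-DMb1 was at 0.0706 against 0.0449 and H2-Aa at 0.0344 against 0.0518, both with intervals that include 1.

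Levels followed the number of the 6 genes found. Isg15 was at 0.613, 0.876, 1.47, 2.72, 6.35, 11.1 and 14.8 per 10000 in goblet cells with 0, 1, 2, 3, 4, 5 and 6 of them. Usp18 went from 0.0847 in cells with none to 1.84 in cells with all 6. Gbp2 was highest with 5 genes, at 2.38, and at 1.67 with all 6, where its interval was 1.23 to 2.21. B2m moved from 12.4 to 17.5. At the limit of the rule, between 2 genes (1.38 to 1.58) and 3 genes (2.54 to 2.91), the ratio of the Isg15 levels was smaller than between 3 genes and 4 (5.95 to 6.77).

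**Figure D3:**
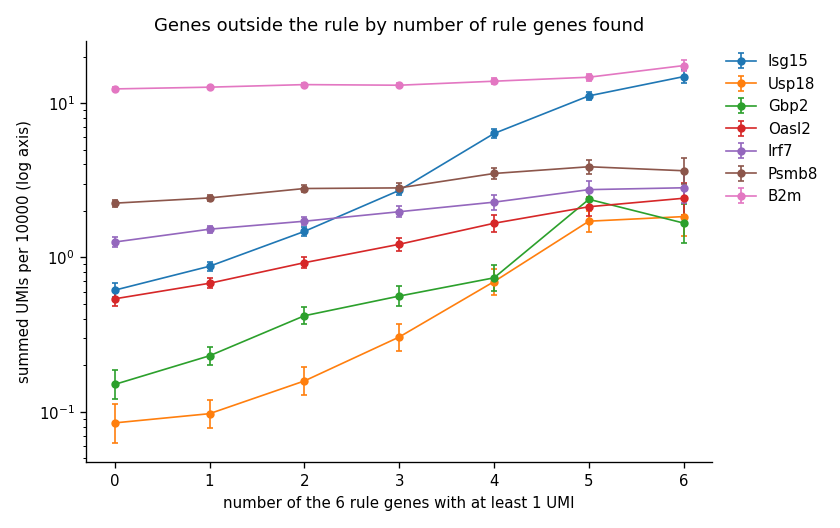
Summed UMIs per 10000, on a log axis, of 7 genes outside the rule in goblet cells with 0 to 6 of the rule genes; bars are the 95% Poisson interval. Isg15 rose from 0.613 to 14.8, and B2m from 12.4 to 17.5.

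The genes whose presence in single cells was most like that of the 6, by the share of thinned interferon goblet cells with a UMI minus the share in cells with none, were led by Isg15, with a difference of 38.5 percentage points. Oasl2, a relative of the enzymes that sense double-stranded RNA, followed with 16.1, Ido1 with 13.6, Xaf1, which promotes cell death, with 13.0 and Oasl1 with 12.9. Rtp4, Mxd1, Duoxa2 and Psmb8 had 11.1, 11.0, 10.9 and 10.9. Mxd1, a repressor that opposes Myc, is listed here as a gene of surface-type goblet cells, and Duoxa2 is needed for the release of hydrogen peroxide by Duox2. Likeness was measured over the 769 and 872 cells of the 2 groups.

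Of the antimicrobial genes, 11 of 14 passed the filter and 2 were at least 2-fold higher, or 1 of 10 with the filter on the other goblet cells. That 1 was Duoxa2, at 1.39 per 10000 against 0.582 (2.39-fold, 95% interval 2.10 to 2.72). The other was Nos2, the inducible nitric oxide synthase, which was kept for its UMIs in the interferon goblet cells and had 45 UMIs against 11 (4.08-fold, 2.08 to 8.74). Reg3g, a lectin that kills Gram-positive bacteria, was at 40.5 against 20.5 (1.97-fold, 1.93 to 2.01), and Saa1, an acute-phase protein, 1.81-fold higher (1.61 to 2.02). Ang4, a ribonuclease active against microbes, was lower, at 18.02 against 31.21 (0.577-fold, 0.564 to 0.591), and Retnlb, a goblet cell protein that acts on bacteria and worms, at 2.48 against 3.12.

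The differences in Reg3g and Reg3b lay in a minority of rich cells. An interferon goblet cell held a median of 4 UMIs of Reg3g and a cell with none of the 6 genes a median of 3, whereas the cell at the 90th percentile held 75 against 21. At least 3 of 2000 UMIs were Reg3g in 34.1% of the interferon goblet cells (95% interval 30.7 to 37.5) and in 26.3% of the cells with none (23.4 to 29.3). For Reg3b these shares were 35.0% (31.6 to 38.5) and 25.5% (22.6 to 28.5). Reg3g did not rise evenly with the 6 genes, at 20.5, 22.04, 23.8, 42.2, 40.6, 26.6 and 65.0 per 10000 in cells with 0 to 6 of them. For Ang4 the medians were 3 and 3 and the 90th percentiles 39.2 and 63, and the shares with at least 3 of 2000 UMIs were 30.9% (27.7 to 34.4) and 36.7% (33.5 to 40.0). Ang4 fell at each step from 0 to 6 of the genes, at 31.2, 29.9, 24.4, 20.5, 16.3, 15.1 and 9.36 per 10000. 2010109I03Rik, a marker of surface-type goblet cells, was at 5.93 against 9.28 per 10000, and the shares of its rich cells were 16.1% (13.6 to 18.9) and 17.3% (14.86 to 19.99).

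**Figure D4:**
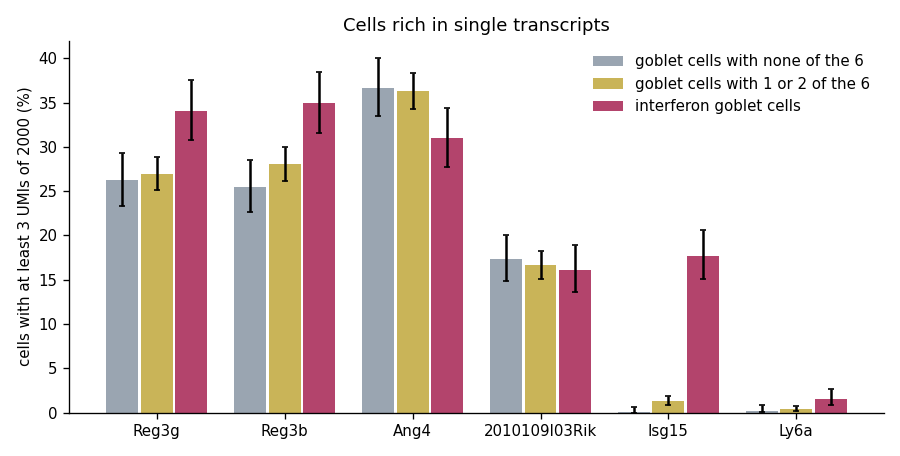
Share of goblet cells with at least 3 of 2000 thinned UMIs for 6 genes in cells with none (gray), 1 or 2 (yellow) and at least 3 (red) of the rule genes; bars show the exact 95% binomial interval. For Isg15 the share was 17.7% in interferon goblet cells and 0.115% in cells with none, while for Ang4 it was 30.9% against 36.7%, with intervals that overlap.

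Goblet genes differed in both directions, mostly by less than 2-fold. Of 25 that passed the filter, 12 had an interval of the fold below 1 and 5 above it, none was 2-fold higher and 1 was 2-fold lower, with a median log2 fold of -0.08. Without the 4 genes that chose the goblet cells, 10 of 21 had an interval below 1 and 4 above it, with a median of -0.10. Among all 7821 genes kept, the interval was below 1 for 10.1% and above 1 for 6.02%, and genes with many UMIs have narrow intervals. Muc2, the gel-forming mucin, was at 136 per 10000 against 127 and Tff3, a trefoil peptide, at 1399 against 1343. Of those that were lower, named after their values were seen, Guca2a, the precursor of guanylin, was at 13.4 against 17.7 (0.757-fold, 0.735 to 0.780), Agr2, a protein disulfide isomerase needed for mucin, at 63.0 against 73.2 (0.860-fold, 0.848 to 0.872) and Rep15 at 2.43 against 3.01 (0.808-fold, 0.752 to 0.867). Pdia5 was 0.598-fold (0.448 to 0.793). Sytl2, a regulator of vesicle docking, was 1.11-fold higher (95% interval 1.03 to 1.19). The 1 gene past 2-fold was Ccl9, a chemokine of crypt-type goblet cells, at 0.229 against 0.482 (0.475-fold, 0.383 to 0.586). Its companion Ccl6 was at 22.8 against 21.1. Of 8 genes of crypt-type goblet cells, which all passed the filter, Atoh1, the factor that sets the secretory fate, was 1.17-fold higher (1.07 to 1.29), and the median log2 fold was 0.00. Of 8 genes of surface-type goblet cells 5 passed, none of them past 2-fold. Mxd1 was 1.25-fold higher (1.20 to 1.30) and Ceacam1, an adhesion molecule, 1.19-fold (1.12 to 1.27), whereas Dmbt1, a secreted binder of bacteria, was at 0.217 against 0.316 (0.686-fold, 0.542 to 0.866).

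Of 13 genes of the endoplasmic reticulum stress response that passed the filter, none reached 2-fold, 7 had an interval below 1 and none above it, against the 10.1% and 6.02% of all genes kept. Their median log2 fold was -0.27, and that of all genes kept -0.05. Pdia6, a protein disulfide isomerase, was at 1.42 per 10000 against 1.97 (0.720-fold, 95% interval 0.657 to 0.788). Chac1 was at 0.0482 against 0.0743, with an interval of 0.388 to 1.07. Of 15 immediate-early and heat-shock genes, which can respond to dissociation, 1 was 2-fold higher, Hspa1a, with 37 UMIs against 18 (2.05-fold, 1.14 to 3.82), and the median log2 fold was -0.06. Hspa1a passed only with its UMIs in the interferon goblet cells, and of the 14 genes that passed on the other goblet cells none reached 2-fold. Klf2 was 0.832-fold (0.719 to 0.961) and Ier3 0.801-fold (0.529 to 1.21).

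Genes of cell death had a median log2 fold of 0.25 over the 16 that passed. Mlkl, which carries out necroptosis, was 3.09-fold higher (95% interval 2.02 to 4.88) and alone past 2-fold. Casp4 (caspase-11), a sensor of bacterial lipopolysaccharide, was at 0.653 per 10000 against 0.375 (1.74-fold, 1.47 to 2.07). Zbp1, a sensor of nucleic acids upstream of Mlkl, was 1.57-fold higher (1.41 to 1.76), and Ripk3, the kinase between them, 1.45-fold (1.16 to 1.80). Pycard, an inflammasome adaptor, was lower, at 0.708 against 0.923 (0.767-fold, 0.673 to 0.874). Of 7 cycling genes that passed none reached 2-fold, and neither did the 1 stem cell gene or the 2 genes of intestinal region that passed.

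**Figure D5:**
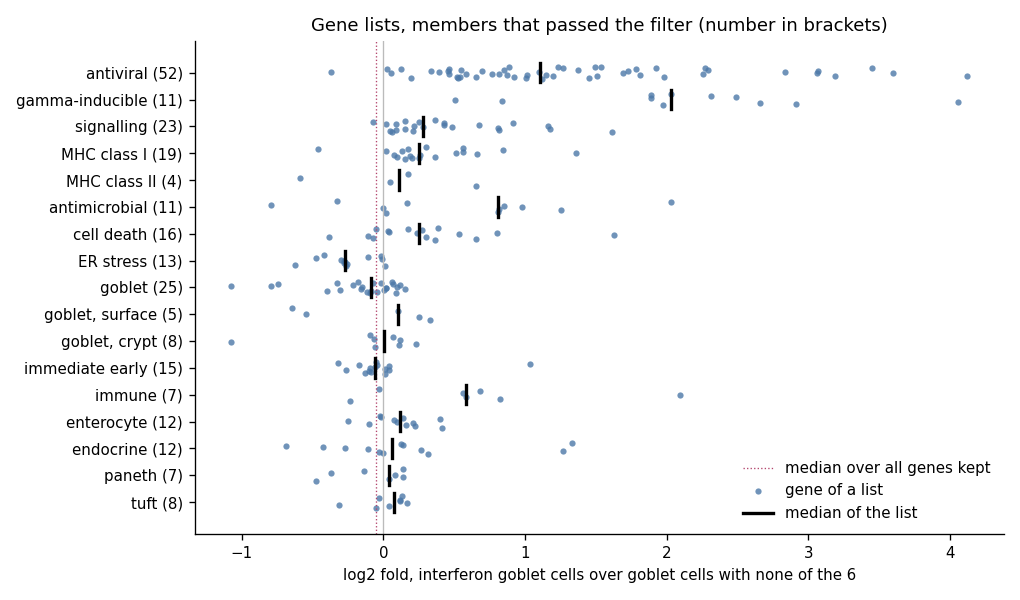
Log2 fold of interferon goblet cells over goblet cells with none of the 6 genes, for the genes of 17 lists that passed the filter (points), with the median of each list (black) and that of all genes kept (dotted, -0.05). The antiviral list had its median at 1.11 and the gamma-inducible list at 2.03 (1.10 and 1.97 with the filter on the other goblet cells), and the goblet list at -0.08.

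Markers of other cells were also compared. Of 20 markers of immune cells 19 were in the table and 18 had a UMI in the interferon goblet cells (Jchain had none), and their sum was 1.71 per 10000 (95% interval 1.61 to 1.82), against 1.14 (1.05 to 1.23) in cells with none of the 6 genes and 1.73 in cells with 1 or 2. The median interferon goblet cell held no UMI of them. Cd3g, a T cell receptor chain, had 30 UMIs against 7 and was past 2-fold, and 5 cells held 80.0% of these 30. The part of immune RNA in the results above was not tested. Tuft, enterocyte and Paneth markers had no gene past 2-fold, with summed levels of 1.26 against 1.24, 33.5 against 33.8 and 202 against 225 per 10000, and Paneth markers made up 382 per 10000 of free RNA.

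The list of hormone and other endocrine genes gave 2 further genes past 2-fold. Ghrl was at 34.6 per 10000 against 14.4 (2.41-fold) and Sst at 3.04 against 1.21 (2.51-fold). The medians per cell were 6 and 5 UMIs for Ghrl and 0 and 0 for Sst, and 5 of the interferon goblet cells held 75.8% and 76.9% of the UMIs. Without the 24 interferon goblet cells and 31 cells with none of the 6 genes in which a hormone reached 100 per 10000, Ghrl was at 7.79 against 7.60 and Sst at 0.795 against 0.808. Iapp, a peptide hormone gene in no list, was also past 2-fold (3.46-fold, 2.11 to 5.93), with 69.9% of its UMIs in 5 of the interferon goblet cells. Without the same hormone-rich cells Iapp was at 0.0483 against 0.0375. Cells among the 7.57% of highest doublet scores were 2.47% of the interferon goblet cells (95% interval 1.49 to 3.83) and 2.06% of those with none (1.23 to 3.24).

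Among genes in no list, Gm5431 was 5.16-fold higher (95% interval 2.68 to 10.9) and Rbm43 4.98-fold (2.50 to 11.0), with 57 and 50 UMIs in the interferon goblet cells. Both passed the filter only with these UMIs, and their folds are given as a description. They were the 2 genes of no list among the 15 highest folds, and the other 13 were antiviral or gamma-inducible genes. Of those named after their values were seen, Ly6a, a surface protein that marks regenerating epithelium, was at 1.11 per 10000 against 0.463 (2.39-fold, 2.07 to 2.77), Trafd1, a brake on innate signaling, at 0.506 against 0.238 (2.12-fold, 1.73 to 2.62) and Pml, a component of nuclear bodies, at 0.158 against 0.0570 (2.78-fold, 1.85 to 4.27).

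The 15 lowest folds were mostly of genes with few UMIs. Gm15299 had 22 UMIs against 104 (0.211-fold, 95% interval 0.127 to 0.336), and Mptx2, a pentraxin found in Paneth cells, 270 against 1019 (0.264-fold, 0.230 to 0.302). In the cells with none of the 6 genes, 5 cells held 72.0% of the Mptx2 UMIs, and the shares of thinned cells with a UMI were 8.58% and 9.40%. The other 13 were Alyref2, Nifk, Onecut3, Gar1, Rnaseh2b, Atic, Mllt11, Bglap3, Opa1, G6pc3, Ppic, Ccnd1 and Ddx18. Of these, Onecut3, a transcription factor, was at 0.0155 against 0.0501 (0.309-fold, 0.129 to 0.671), and the interval of Ppic, 0.159 to 1.00, included 1.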

How the data were processed

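The values are UMI counts per gene and barcode, deposited without normalization. Per the labels and methods, the authors aligned reads of a 10X droplet library to mm10 with Cell Ranger 2.0.1 at default settings and collapsed UMIs. All barcodes are in the matrix. Those with more than 1000 genes and under 10% mitochondrial UMIs were kept (9451 cells, 66245278 UMIs), which is more cells than the authors analyzed. 7129 of them exceed the UMI limit of Cell Ranger 2, which was tried as an alternative. Members and lists were chosen with earlier results of these data known, and the bulk table was not used. Groups were compared as ratios of summed counts in Python 3.11.15 (scipy 1.17.1 for intervals, numpy 2.4.6 and pandas 2.3.3 for tables, matplotlib 3.10.9 for figures). The interval method was tested on simulated Poisson counts, the model it assumes. These leave out the gathering of UMIs in few cells, so the test cannot speak to that spread. Scrublet in scanpy 1.11.5 called 0 doublets, so the 715 highest scores were left out only as an alternative.

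Named genes were the 6 genes of the rule, Isg15 and Gbp2, up to 4 highest and 2 lowest folds per list among genes past the filter, the 15 highest and 15 lowest folds of all, and the 10 most alike after thinning. One gene that this rule selects is not reported here. Other genes named were chosen after their values were seen.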

Additional observations from a re-analysis of the deposited data

How the results depend on the processing

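Of 120 recomputed values, 82 stayed within the range set for them, 38 moved and none reversed. The range was the counting interval for shares and 1.5 times either way for counts. For the medians of the 4 lists it came from the spread of folds among the genes of the list, which is not counting error. These medians stayed within it under every alternative tried for them. They ran from 0.822 to 1.36 for the antiviral list and from 1.58 to 2.67 for the gamma-inducible list. For the MHC class I list they ran from 0.163 to 0.323, and for the goblet list from -0.106 to -0.0386. The number of interferon goblet cells and their share of goblet cells depend on the limits. They were 1289 and 13.3% with over 500 genes, 423 and 22.9% with over 1500 genes, 1576 and 41.4% with at least 2 of the 6 genes, 354 and 9.31% with at least 4, and 240 and 6.31% when the 6 genes were counted after thinning. Leaving 1 gene out of the rule gave a share of 14.9% without Ifit1, 13.0% (495 cells) without Ifit1bl1, 14.2% without Rsad2, 18.01% without Cmpk2, 9.99% (380 cells) without Ddx60 and 18.5% without Slfn4. The counts of genes at least 2-fold higher and lower were 44 and 27 against all other goblet cells, 45 and 30 after thinning, 240 and 358 with at least 5 expected UMIs, and 42 and 6 with at least 50. With at least 2 of the 6 genes, the other classes had shares of 35.2% (goblet genes and Chgb high), 7.73% (Chgb high) and 16.0% (neither). With at least 3 of the 6 genes, as in the rule, their thinned shares were 3.69%, 0.582% and 1.11% in the same order. Without the highest doublet scores, the share in cells high in goblet genes and Chgb was 11.97%. Thinning gave 15.6% of interferon goblet cells with Xist alone and 10.8% with Y-linked UMIs alone, against 24.97% and 26.53%. The core without its last base was found for 9.76% of all genes with a promoter window. Among the antiviral and gamma-inducible genes with a window it was found for 61.5%. Leaving out goblet cells with at least 100 hormone UMIs per 10000 was chosen after seeing the data, and gave 77 genes higher and 35 lower. So was the filter on goblet cells with 1 or 2 of the 6 genes (73 and 48) or on all goblet cells but the interferon goblet cells (67 and 60). No paired analysis was possible because there was 1 library, which also leaves no replicate to leave out, and depth limits what can be said of genes with few UMIs.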
